A study of Mus musculus with 12 samples.

Results

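Adipose tissue is a secretory organ, and the hormones and binding proteins that it releases are called adipokines. The genes examined here were Cfd, Lep, Retn, Rbp4, Rarres2, Sfrp5, Apln and Lcn2, 8 genes chosen by name with earlier results of these data known. Every ATAC-seq peak whose assigned gene symbol was 1 of these names was taken from both deposited peak tables. That gave 21 of 58558 peaks in brown adipose tissue (BAT) and 17 of 39558 peaks in inguinal white adipose tissue (iWAT), 38 in all. In both depots 7 of the genes had peaks. Apln, which encodes the peptide apelin, lies on chromosome X and had no listed peak, since the authors kept autosomal reads.

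The comparison addresses which sites in fat lose or gain open chromatin without BAF60a, the product of Smarcd1 and a component of SWI/SNF remodelling complexes. The 12 samples were all from C57BL/6 mice with floxed BAF60a alleles in both groups. Flox mice carried the alleles alone, and AKO mice also carried the Adiponectin-Cre transgene, which deletes the gene in adipocytes and leaves it in the other cells of the tissue. Each of the 3 BAT samples per genotype came from 1 mouse, whose age and housing temperature are not given in the sources used here. For iWAT, the fat pads of 6 mice per genotype, 6 to 8 months of age and held for 7 days at 10 °C after stepwise cooling, were pooled, and the pool was split into 3 aliquots. The iWAT p-values thus measure the spread between aliquots of 1 pool, which is technical.

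ATAC-seq uses a transposase that cuts preferentially where DNA is not wrapped in nucleosomes, and the reads at a site report how open it is. Remodelling complexes of the SWI/SNF family slide or evict nucleosomes so that transcription factors can reach promoters and distal elements. Adipokine genes are known for strong transcription in mature adipocytes, under factors such as PPARγ and C/EBPα. Cfd, also called adipsin, encodes complement factor D, the serine protease that cleaves factor B in the alternative complement pathway. Lep encodes leptin, which reports fat stores to the brain, and Retn encodes resistin. Rbp4 encodes the carrier of retinol in blood. Rarres2 encodes chemerin, a chemoattractant, Sfrp5 a secreted antagonist of Wnt ligands, and Lcn2 lipocalin 2, which binds bacterial siderophores.

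The sequences below were taken from GRCm38 (mm10), the build of the peak tables, because the peaks of the set that DESeq2 or edgeR called were at Cfd, while the Lep and Retn start sites are shown as comparators. The first is the central 300 bases of the BAT peak downstream of Cfd, chr10:79897049-79897348 on the plus strand, in intron 11 of the neighbouring gene Med16. The others are the 250 bases before the RefSeq start site of Cfd (chr10:79890603-79890852, plus strand), Lep (chr6:29059971-29060220, plus strand) and Retn (chr8:3655520-3655769, plus strand), credited to RefSeq. Capitals mark matches to the motifs searched.
Cfd downstream: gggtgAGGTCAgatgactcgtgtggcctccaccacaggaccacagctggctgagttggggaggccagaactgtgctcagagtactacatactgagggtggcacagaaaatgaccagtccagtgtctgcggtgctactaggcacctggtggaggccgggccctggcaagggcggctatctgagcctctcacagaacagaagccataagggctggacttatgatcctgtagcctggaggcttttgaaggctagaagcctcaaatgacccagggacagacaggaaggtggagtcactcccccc
Cfd promoter: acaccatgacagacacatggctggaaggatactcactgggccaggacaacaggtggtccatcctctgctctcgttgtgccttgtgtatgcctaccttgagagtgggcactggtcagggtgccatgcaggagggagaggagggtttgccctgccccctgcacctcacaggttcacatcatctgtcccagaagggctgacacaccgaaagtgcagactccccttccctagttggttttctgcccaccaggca
Lep promoter: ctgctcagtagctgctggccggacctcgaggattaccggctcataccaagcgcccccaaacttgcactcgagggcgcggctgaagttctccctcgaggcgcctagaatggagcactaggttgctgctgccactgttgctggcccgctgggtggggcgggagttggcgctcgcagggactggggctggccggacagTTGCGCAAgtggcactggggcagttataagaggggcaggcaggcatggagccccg
Retn promoter: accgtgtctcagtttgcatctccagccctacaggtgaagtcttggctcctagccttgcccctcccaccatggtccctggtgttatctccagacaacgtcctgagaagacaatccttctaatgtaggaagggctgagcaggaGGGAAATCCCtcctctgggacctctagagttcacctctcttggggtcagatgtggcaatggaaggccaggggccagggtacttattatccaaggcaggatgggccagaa

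The motifs searched, on both strands, were AGGTCA, the core site of nuclear receptors, a pair of AGGTCA sites 1 base apart with up to 2 mismatches in all (the PPAR direct repeat, which can overlap the single site), TTGCNNAA for C/EBP factors, TTGGCA for NF1, CCCNNGGG for EBF, TATAAA for the TATA box, and the NF-kB site. The Cfd downstream window held 1 AGGTCA, at bases 6 to 11. Such a match was present in 22.9% of the central 300 bases of all BAT peaks. No PPAR direct repeat was found in that window or elsewhere in any Cfd peak of either depot, and 6.41% of all BAT peak centres held one. The Cfd promoter window held none of the motifs. The Lep window held a C/EBP match at bases 196 to 203, TTGCGCAA, as did 9.56% of 32851 RefSeq promoter windows with a match of that form. The Retn window held an NF-kB match at bases 142 to 151, a motif found in 3.90% of those windows. Among the 21 BAT peaks, 3 held the PPAR direct repeat in their central 300 bases, at Lep, Retn and Sfrp5, and 5 held the C/EBP motif, against 15.1% of all BAT peaks. These are matches of letters and say nothing of binding.

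Sequenced reads in peaks ran from 6336670 to 27500738 per BAT sample and from 4066720 to 6691161 per iWAT sample. The deposited values are reads per peak divided by a size factor of the sample, here called normalized reads, and each table was normalized on its own. Genotypes were compared with limma on log2(normalized reads + 1) over all peaks of a table and called below an adjusted p (Benjamini-Hochberg) of 0.1. The BAT fit included principal component 1 (PC1) as a covariate, and where this moved a value more than 1.5-fold or turned its sign, the log2 fold change without PC1 is also given. PC1 carried 55.6% of the variance between BAT samples, and AKO replicate 2, the sample with the fewest reads, stood at its far end. Flox replicate 1, with the most reads, stood at the opposite end. The PC1 scores were −98.2, −41.8 and 14.6 in flox and −0.62, 112.5 and 13.5 in AKO mice. PC1 in BAT thus ran in part with genotype and with read number, and the values fitted with it depend on that overlap. An exact permutation of 3 against 3 samples cannot give a p below 0.1. As a check of the labels, the Smarcd1 peak in intron 4 held 136, 201 and 185 normalized reads in flox and 23.7, 57.9 and 26.9 in AKO mice, with groups that did not overlap, and the Smarcd1 start site peak was 485, 456 and 369 normalized reads in flox and 412, 417 and 497 in AKO. In iWAT the table lists only the start site peak, which held 249, 188 and 211 normalized reads in flox and 233, 229 and 229.9 in AKO aliquots, so the deletion could not be checked there. Replicates are named in order 1, 2 and 3 throughout.

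Limma called 0 of the 58558 BAT peaks (0%) and 0 of the 39558 iWAT peaks (0%), and no adipokine peak. At an unadjusted p under 0.05 from limma, 2 of the 21 BAT adipokine peaks were lower in AKO mice and 0 higher, where 5.59% of all BAT peaks were lower and 3.46% higher, 9.05% in all. In iWAT, 2 of 17 were lower and 0 higher, where 7.42% and 7.61% of all peaks were, 15.0% in all. DESeq2 on the recovered whole reads called 2 BAT adipokine peaks lower, both at Cfd, against 0.298% of all peaks tested. It called 1 iWAT adipokine peak lower, also at Cfd, against 0.630%. The quasi-likelihood test of edgeR called 1 lower in each depot, both at Cfd, where 0.114% of all BAT and 2.52% of all iWAT peaks were called lower. No adipokine peak was called higher by these tools, which called 0.110% (DESeq2) and 0.0290% (edgeR) of all BAT peaks and 0.546% and 2.15% of all iWAT peaks higher. The DESeq2 shares are of the 42663 BAT and 35723 iWAT peaks with an adjusted p. DESeq2 gave none, and so could make no call, at the BAT peaks of Retn at 1228 bp and of Sfrp5 at −2355, 5971 and 11556 bp. The same held in iWAT for Lep at 4948 bp and Sfrp5 at −2320 bp. DESeq2 without PC1 called 1 BAT adipokine peak lower, again at Cfd, and 0.517% of all BAT peaks. The paper names Cfd among genes with reduced accessibility, from these BAT samples, and with reduced mRNA by qPCR. Its accessibility test was DESeq2 with a PC1 covariate at a false discovery rate under 0.1. It reports fewer BAT peaks than are listed here. The genes here were chosen with earlier results known, so the Cfd calls cannot be read as an excess over these shares. Values of every AKO sample lay below every flox sample at 2 BAT and 2 iWAT adipokine peaks, as at 8.84% and 10.3% of all peaks. They lay above at 5 BAT adipokine peaks and 0 iWAT ones, as at 8.77% and 10.6% of all peaks. The median fitted log2 fold change of the adipokine peaks was 0.06 in BAT, with 0.20 without PC1 and 0.275 without flox replicate 3, and −0.04 in iWAT, with −0.135 without AKO replicate 2. These stand beside medians of 0.01 and −0.00089 over all peaks.

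**Figure D1:**
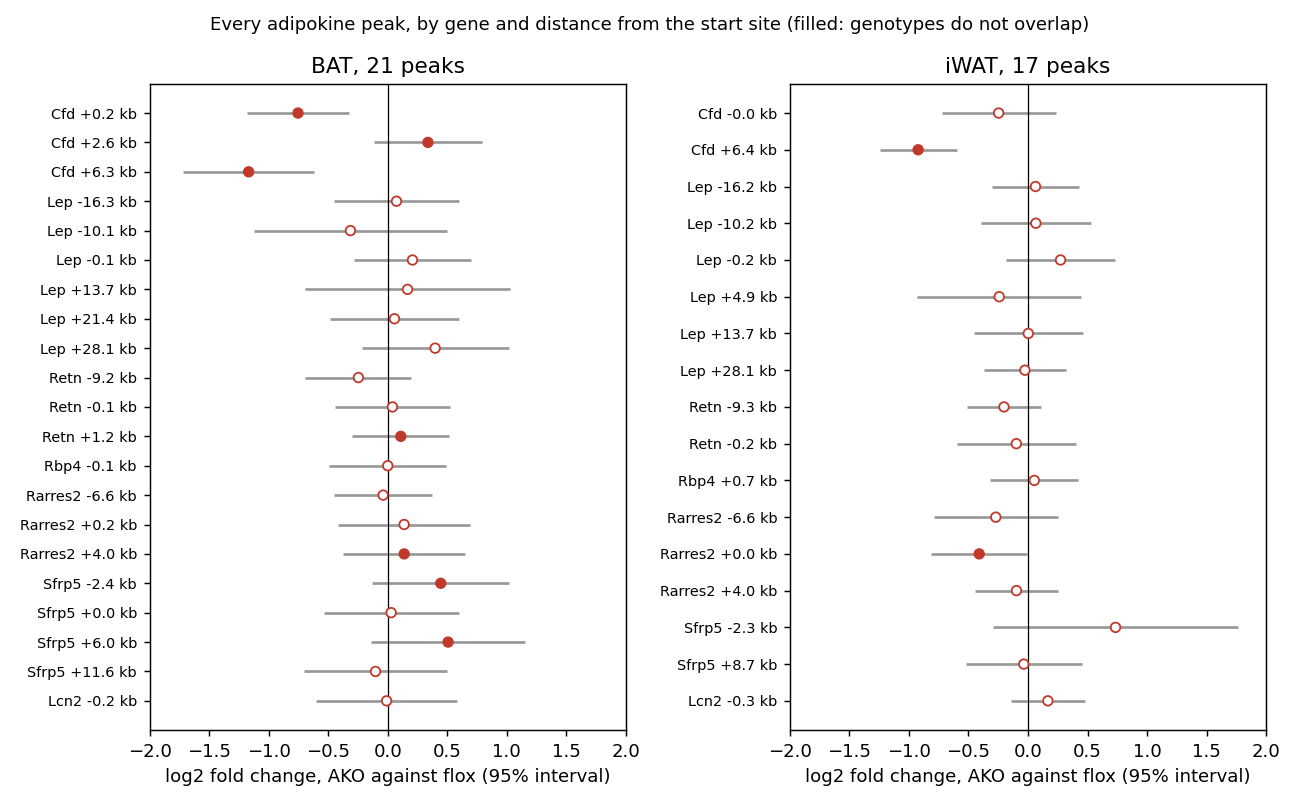
Fitted log2 fold change of AKO against flox (x axis, with its 95% interval) for each of the 21 BAT peaks (left) and 17 iWAT peaks (right) of the adipokine genes, labelled by gene and by distance in kb from the transcription start site. Filled points mark peaks whose 3 AKO and 3 flox samples do not overlap, and the intervals of the Cfd start site and downstream peaks in BAT and of the Cfd downstream and Rarres2 start site peaks in iWAT lie wholly below 0.

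Cfd held the adipokine peaks with the largest fitted differences in the iWAT fit and in the BAT fit with PC1. Without PC1 the Sfrp5 peaks in BAT, given below, had differences of like size in the other direction. The table assigns 3 BAT peaks to Cfd, and 2 of them were less open in every AKO mouse. The gene runs from chr10:79890853 to 79892655 on the plus strand. Its start site peak in BAT (chr10:79890634-79891534, midpoint 231 bp into the gene) held 370.5, 379 and 389 normalized reads in flox and 229.9, 305 and 239 in AKO mice. The flox mice lay close together and all AKO mice below them, AKO replicate 2 nearest. The mean was 379.6 ± 9.46 in flox and 258 ± 41.1 in AKO (SD over 3 mice each), 32.0% lower. The fitted log2 fold change was −0.75 (SE 0.183, adjusted p = 0.44) from limma. DESeq2 gave an adjusted p of 0.0756 and edgeR 0.155.

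The other Cfd peak that was less open in BAT lies 6345 bp from the start site (chr10:79896798-79897598), beyond the end of the gene and inside Med16, which encodes a Mediator subunit and is transcribed from the opposite strand. Its midpoint is in intron 11 of Med16 and the peak reaches into exons of that gene, so the assignment to Cfd rests on the table. It held 378, 349 and 406 normalized reads in flox and 185, 301 and 174 in AKO mice. The groups again did not overlap, and AKO replicate 2 was again the highest of its group. The mean was 377.8 ± 28.7 in flox and 219.8 ± 70.8 in AKO (SD over 3 mice each), 41.8% lower. Its fitted log2 fold change of −1.17 (SE 0.234, adjusted p = 0.431) ranked 209 of 58558 by the p of limma and 29 by that of DESeq2. DESeq2 gave an adjusted p of 0.00118 and edgeR 0.0457. Without AKO replicate 2 the adjusted p of DESeq2 was 0.00236 for the downstream peak and 0.161 for the start site peak. Without flox replicate 3 or AKO replicate 1, DESeq2 no longer called the downstream peak, with adjusted p-values of 0.177 and 0.241, and no omission of 1 mouse left the start site peak called. Without PC1 the log2 fold changes were −0.82 and −0.57 by limma, and the adjusted p-values of DESeq2 were 0.0737 and 0.164 for the downstream and the start site peak.

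The remaining Cfd peak in BAT, between the others at 2638 bp from the start site (chr10:79893356-79893626), went the other way in sign. It held 157, 162 and 124 normalized reads in flox and 170.1, 164 and 172 in AKO mice. Every AKO value was above every flox value by a small margin, with a log2 fold change of 0.34 (SE 0.192, adjusted p = 0.643, 0.20 without PC1) that did not pass the test.

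In iWAT the table lists a single wide Cfd peak downstream (chr10:79896047-79898460), which contains the whole downstream BAT peak. It held 1322, 1146 and 1335 normalized reads in flox and 682, 714 and 608 in AKO aliquots. The lowest flox aliquot was far above the highest AKO aliquot. The mean was 1268 ± 105 in flox and 668 ± 54.0 in AKO (SD, n = 3 aliquots), 47.3% lower. The fitted log2 fold change was −0.92 (SE 0.138, adjusted p = 0.149) from limma, rank 52 of 39558. By DESeq2 it had the smallest p of the iWAT table, with an adjusted p of 3.13e-23, and by edgeR likewise, with 5.9e-16. With any 1 aliquot left out, the adjusted p of DESeq2 stayed between 1.28e-27 and 2.68e-14 and that of limma between 0.187 and 0.335. When peaks averaging under 50 normalized reads were left out, limma called this peak, with an adjusted p of 0.0592.

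The iWAT peak over the Cfd start site (chr10:79890688-79890987) did not separate the genotypes. It held 118, 110.1 and 89.5 normalized reads in flox and 101, 102 and 67.4 in AKO aliquots, and the groups overlapped. The log2 fold change was −0.25 (SE 0.205, adjusted p = 0.613), with a 95% interval from −0.73 to 0.23. The difference between the start site and downstream peaks was not tested. Per kb of peak, the downstream site was the more open of the pair in flox iWAT, with 525 normalized reads against 353, at percentiles 97.8 and 91.0 of all iWAT peaks. In flox BAT the downstream site held 471.6 and the start site 421.4 normalized reads per kb, percentiles 81.1 and 76.6. The summed signal of all Cfd peaks was 905.5, 889.7 and 919.7 normalized reads in flox and 584.5, 770.6 and 584.3 in AKO BAT. In iWAT it was 1439.9, 1256 and 1425 normalized reads in flox and 784, 815 and 676 in AKO. In both depots the groups were apart on this sum. The share of all genes with groups apart on such a sum was not counted.

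**Figure D2:**
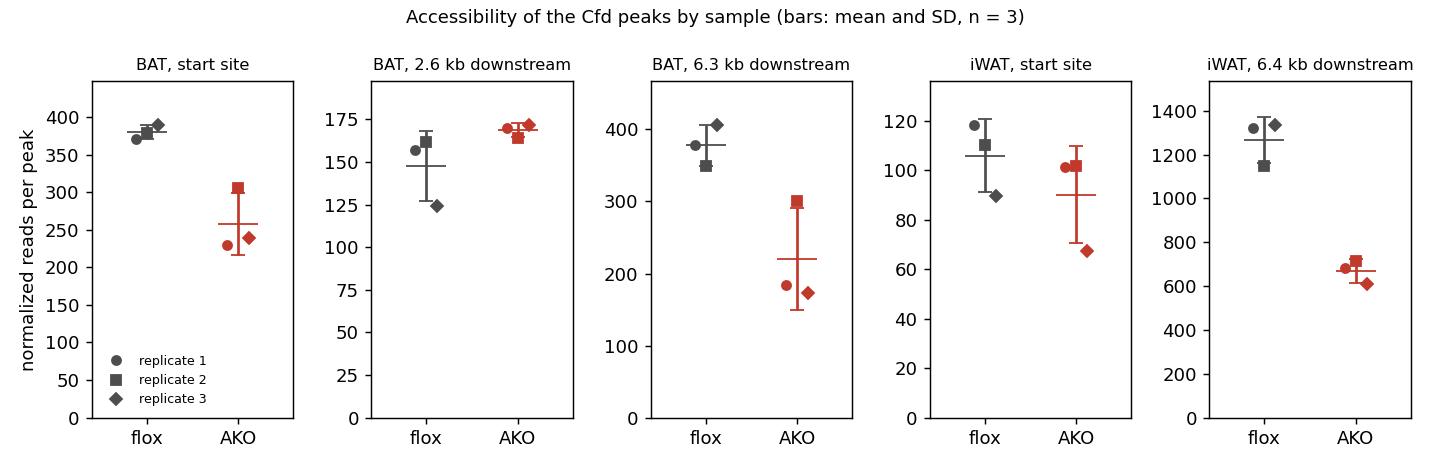
Normalized reads (y axis, from 0) at each Cfd peak in the 3 flox (grey) and 3 AKO (red) samples, with the mean and SD, for the 3 BAT peaks and the 2 iWAT peaks. The AKO samples lie below the flox samples at the start site and 6.3 kb downstream in BAT and 6.4 kb downstream in iWAT, and overlap them at the iWAT start site.

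Several marker sums moved in BAT in the direction of the Cfd peaks. The summed signal of the peaks of 6 adipocyte markers, all 6 with peaks, ran from 19561 to 21174 normalized reads in flox and from 13389 to 18239 in AKO mice. That of 6 brown adipocyte markers, all 6 with peaks, ran from 14356 to 18733 and from 9468 to 10955. The neutrophil list (6 of 7 genes with peaks, Ly6g without) ran from 1445 to 1528 in flox and from 1212 to 1324 in AKO mice, the macrophage list (3 of 6 with peaks, with Csf1r, Cd68 and Lyz2 without) from 2434 to 3262 and from 2105 to 2302, and the mesothelial list (5 of 5) from 5049 to 5553 and from 4382 to 4791. Most of the neutrophil sum was the single Elane peak, which lies within 50 kb of Cfd, and without it the list ran from 369 to 424 in flox and from 346 to 516 in AKO mice, with overlapping groups. Among AKO mice, replicate 2 had the lowest adipocyte and brown adipocyte sums, 13389 and 9468. Replicate 2 also had the highest AKO values at the Cfd start site and downstream peaks, 305 and 301 normalized reads. In the neutrophil list the lowest AKO sum was that of replicate 1. The share of all gene lists with groups apart on such a sum was not counted. The part of the marker lists in the Cfd result was not tested. In bulk tissue, fewer adipocyte nuclei and less open chromatin per nucleus cannot be told apart. In iWAT the adipocyte marker sum did not separate the genotypes, at 2736 to 3513 in flox and 2821 to 3089 in AKO, and the brown adipocyte sum was higher in AKO, at 1242 to 1373 against 1177 to 1208. Sums lower in AKO in iWAT were those of the lymphocyte list (3 of 6 genes with peaks), 229 to 246 in flox and 169 to 196 in AKO, the endothelial list (4 of 6), 766 to 783 and 586 to 712, and the skeletal muscle list (2 of 5), 780 to 971 and 740 to 775. Their part in the iWAT Cfd result was not tested either. The mesothelial sum was higher in AKO in iWAT (2 of 5 genes with peaks), at 793 to 831 against 661 to 790.2, and the neutrophil (4 of 7) and macrophage (3 of 6) sums overlapped there, as did the lymphocyte (1 of 6), endothelial (6 of 6) and skeletal muscle (2 of 5) sums in BAT. The fibroblast and preadipocyte and the Schwann cell sums overlapped between genotypes in both depots.

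No peak of a neighbouring gene was called along with the Cfd peaks. Within 50 kb of the Cfd start site, 15 BAT peaks and 12 iWAT peaks were assigned to other genes, and none was called by limma or DESeq2. DESeq2 gave no adjusted p to the Plppr3 peak in BAT. Their fitted log2 fold changes ran from −0.33 to 0.97 in BAT and from −0.21 to 0.61 in iWAT. Those described here are the Elane, Prtn3 and Plppr3 peaks upstream of Cfd and the Med16 and R3hdm4 peaks downstream. The Med16 start site peak held 936, 873 and 792 normalized reads in flox and 831, 605 and 778 in AKO mice, a mean 14.9% lower in AKO with overlapping groups and a log2 fold change of 0.02 (−0.24 without PC1). In iWAT it held 363, 334 and 369 normalized reads in flox and 301, 307 and 313 in AKO aliquots, with AKO below flox and a log2 fold change of −0.21. Elane encodes neutrophil elastase, a serine protease like factor D, and is on the neutrophil list above. Its peak upstream of Cfd held 1158, 1020.5 and 1057 normalized reads in flox and 866, 782 and 954 in AKO mice and 382, 316 and 353 normalized reads in flox and 289, 300.3 and 313 in AKO aliquots of iWAT, log2 fold changes of −0.19 (−0.32 without PC1) in BAT and −0.21 in iWAT. The AKO samples lay below the flox samples at the Elane peak in both depots, with log2 fold changes smaller in size than at the Cfd downstream peak. At R3hdm4 the BAT values overlapped, with a log2 fold change of −0.20. Further upstream the fitted values were positive in BAT. The Prtn3 peak, at −12932 bp, held 133, 84.2 and 82.8 normalized reads in flox and 141, 90.8 and 108 in AKO mice, with overlapping groups and a log2 fold change of 0.62 (0.19 without PC1). The Plppr3 peak, at −16421 bp, held 28.7, 25.1 and 27.2 normalized reads in flox and 63.9, 46.4 and 41.3 in AKO mice, with AKO above flox and a log2 fold change of 0.97 (adjusted p = 0.441). In iWAT both overlapped, with log2 fold changes of −0.05 at Prtn3 and 0.34 at Plppr3.

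**Figure D3:**
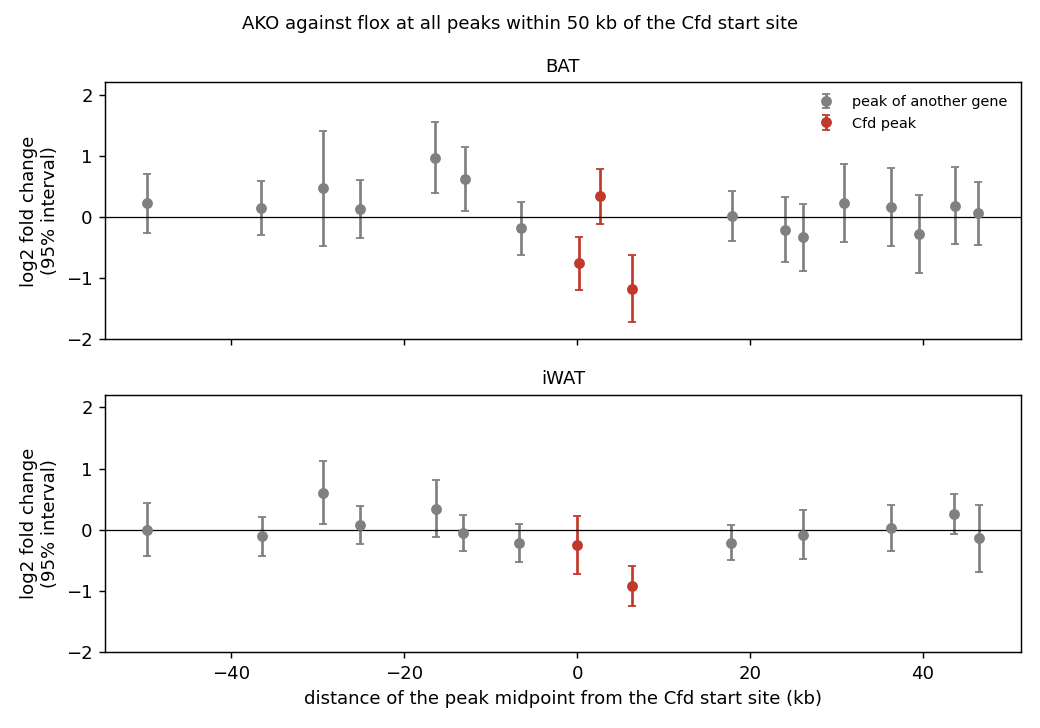
Fitted log2 fold change of AKO against flox (y axis, with its 95% interval) for every peak within 50 kb of the Cfd start site, by distance of the peak midpoint in kb (x axis), in BAT (top) and iWAT (bottom). The Cfd peaks (red) at the start site in BAT and about 6 kb downstream in both depots lie lowest, and the peaks of other genes (grey) lie between −0.33 and 0.97 in BAT and between −0.21 and 0.61 in iWAT.

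Leptin had the most peaks of the set, 6 in each depot, and none separated the genotypes in either. The Lep start site peak in BAT (chr6:29059716-29060544) held 683, 656 and 688 normalized reads in flox and 788, 531 and 724 in AKO mice. The flox values lay inside the range of the AKO values, and the log2 fold change was 0.21 (SE 0.208, adjusted p = 0.79, −0.01 without PC1). The smallest p of Lep in BAT was that of a peak 28103 bp downstream of the start site (chr6:29087868-29088780), which held 943, 724 and 802 normalized reads in flox and 1139, 549 and 804 in AKO mice. AKO replicates 1 and 2 were the highest and the lowest of its 6 values, and the log2 fold change was 0.40 (SE 0.262, adjusted p = 0.685, −0.04 without PC1). That distal peak was also among the most open of the set, at percentile 97.1 of all BAT peaks per kb, above the start site peak at 95.7. The other 4 BAT peaks, at −16291, −10144, 13675 and 21379 bp, had fitted log2 fold changes from −0.31 to 0.17 with PC1. Without PC1 they ran from 0.01 to 0.61, with 0.61 at 13675 bp and 0.51 at 21379 bp. The one at −10144 bp had a mean of 71.0 in flox and 91.1 in AKO mice, so its fitted value of −0.31 went against the ratio of means, and without PC1 it was 0.38.

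In iWAT the Lep start site peak (chr6:29059813-29060311) held 130.4, 78.9 and 97.3 normalized reads in flox and 116, 121 and 126 in AKO aliquots, and it also had the smallest p of the Lep peaks there. The 3 AKO aliquots were close together and inside the range of the flox aliquots. Its log2 fold change was 0.27 (SE 0.195, adjusted p = 0.551). The other 5 iWAT peaks had values from −0.24 to 0.07. The 28 kb downstream site was the most open Lep site in iWAT as well, at percentile 89.1, with 263, 260.2 and 244 normalized reads in flox and 265, 279 and 214 in AKO. A peak in intron 1 of Lep, 4948 bp from the start site, was listed in iWAT alone, and a peak 21379 bp downstream in BAT alone.

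Resistin had 3 peaks in BAT and 2 in iWAT. The start site peak of Retn in BAT (chr8:3655315-3655999) held 265, 301 and 307 normalized reads in flox and 312, 247 and 301 in AKO mice, and the log2 fold change was 0.04 (SE 0.205, adjusted p = 0.968, −0.02 without PC1). The peak at −9224 bp (chr8:3645768-3647324), which holds a PPAR direct repeat match at its centre, held 537, 574 and 656 normalized reads in flox and 495, 531 and 573 in AKO mice. Its groups overlapped, with a log2 fold change of −0.25 (SE 0.189, adjusted p = 0.729, −0.14 without PC1). The same site in iWAT held 216, 229 and 204 normalized reads in flox and 204, 186 and 174 in AKO aliquots, with a log2 fold change of −0.20 (SE 0.132, adjusted p = 0.516). The fitted value of this upstream site was negative in both depots. In iWAT the start site peak held 161, 119 and 201 normalized reads in flox and 130.2, 168 and 143 in AKO aliquots, with a log2 fold change of −0.10. A small peak in intron 3 of Retn, listed in BAT alone, held 31.4, 39.2 and 42.7 normalized reads in flox and 44.3, 59.9 and 48.0 in AKO mice. Its AKO values were just above the flox values, and the log2 fold change of 0.11 (SE 0.173, adjusted p = 0.872, 0.42 without PC1) did not pass the test.

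Besides Cfd, Rarres2 was the gene of the set with a peak at an unadjusted p under 0.05 from limma as fitted here, with PC1 in BAT. The iWAT peak over the Rarres2 start site (chr6:48572068-48573496) held 186, 223 and 194 normalized reads in flox and 163, 172 and 122 in AKO aliquots. All AKO aliquots were below all flox aliquots, the mean being 201 ± 19.8 in flox and 152 ± 26.8 in AKO (SD, n = 3 aliquots), 24.3% lower. Its log2 fold change was −0.41 (SE 0.173, adjusted p = 0.327) from limma, which does not pass the threshold, and DESeq2 and edgeR gave adjusted p-values of 0.273 and 0.104. In BAT the peak at that site (chr6:48571608-48573581) held 332, 269 and 374 normalized reads in flox and 411, 398 and 329 in AKO mice. The BAT groups overlapped, with a log2 fold change of 0.14 (SE 0.234, adjusted p = 0.883, 0.23 without PC1). The difference between the depots was not tested, since their tables were normalized apart.

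The upstream Rarres2 site, at −6630 bp in BAT and −6624 bp in iWAT, held 175, 179 and 184 normalized reads in flox and 170.1, 183 and 187 in AKO mice in BAT, a log2 fold change of −0.04 (0.01 without PC1). In iWAT it held 96.2, 65.6 and 83.5 normalized reads in flox and 57.6, 58.2 and 88.7 in AKO aliquots, a log2 fold change of −0.27, with overlapping groups in both depots. The site in the downstream direction, at 4030 bp in BAT in an exon of the gene Lrrc61, held 99.3, 132 and 149 normalized reads in flox and 154, 153 and 161 in AKO mice. Here AKO was above flox in BAT, and the log2 fold change was 0.14 (SE 0.218, adjusted p = 0.872, 0.32 without PC1). The iWAT peak at the same site held 79.1, 101 and 103 normalized reads in flox and 85.3, 92.5 and 85.5 in AKO aliquots, a log2 fold change of −0.10. The 3 iWAT peaks were all negative in fitted value. Their sum was 361, 390.2 and 380.4 normalized reads in flox and 305, 323 and 296 in AKO, with the groups apart. As for Cfd, the share of all genes apart on such a sum was not counted.

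The least open BAT peaks of the set per kb were at Sfrp5, which had 4 there and 2 in iWAT. Its start site peak in BAT (chr19:42201738-42202696) stood at percentile 4.35 of all BAT peaks per kb and held 69.0, 76.9 and 141 normalized reads in flox and 134, 197 and 111 in AKO mice. The log2 fold change was 0.03 (SE 0.24, adjusted p = 0.98, 0.65 without PC1). The smallest p was that of a peak 5971 bp downstream (chr19:42196113-42196449), with a PPAR direct repeat match, which held 28.2, 25.1 and 42.7 normalized reads in flox and 44.3, 57.9 and 62.4 in AKO mice. AKO was above flox there, with a log2 fold change of 0.51 (SE 0.274, adjusted p = 0.624, 0.78 without PC1). Limma without PC1 gave it an unadjusted p of 0.0119 (adjusted 0.351) and the peak at −2355 bp 0.0148 (adjusted 0.354). The share of all BAT peaks at an unadjusted p under 0.05 in that fit was not counted. The other BAT peaks, at −2355 and 11556 bp, had fitted log2 fold changes of 0.45 (0.68 without PC1) and −0.10 (0.22 without PC1), and AKO was above flox at the upstream one. No iWAT peak over the start site was listed. The nearer of the 2 iWAT peaks, at −2320 bp, held 7.84, 16.7 and 15.5 normalized reads in flox and 38.0, 11.4 and 23.5 in AKO aliquots, a log2 fold change of 0.74 (SE 0.439, adjusted p = 0.475). At so few reads, differences of this size were not distinguishable from the spread. The other held 27.1, 31.1 and 38.7 normalized reads in flox and 36.9, 24.0 and 34.2 in AKO aliquots, a log2 fold change of −0.04.

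Rbp4 and Lcn2 each had a single peak per depot, over the start site, and neither separated the genotypes. The Rbp4 peak in BAT (chr19:38124409-38125347) held 310.4, 342 and 357 normalized reads in flox and 309, 355 and 411 in AKO mice, and its fitted log2 fold change was 0.00 (SE 0.209, adjusted p = 1, 0.08 without PC1), with a 95% interval from −0.49 to 0.49. The wider iWAT peak (chr19:38122896-38125284) held 247, 215 and 288 normalized reads in flox and 286, 244 and 245 in AKO aliquots, a log2 fold change of 0.05 (SE 0.158, adjusted p = 0.905). The Lcn2 peak in BAT (chr2:32387574-32388291) held 446, 414 and 552 normalized reads in flox and 447, 390.1 and 542 in AKO mice, a log2 fold change of −0.01 (SE 0.25, adjusted p = 0.994, −0.04 without PC1), with a 95% interval from −0.60 to 0.58. In iWAT (chr2:32387769-32388270) it held 90.5, 78.9 and 89.5 normalized reads in flox and 89.9, 104 and 97.3 in AKO aliquots, a log2 fold change of 0.17 (SE 0.134, adjusted p = 0.599). The Lcn2 peaks of both depots held C/EBP, NF1 and NF-kB matches in their central 300 bases.

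**Figure D4:**
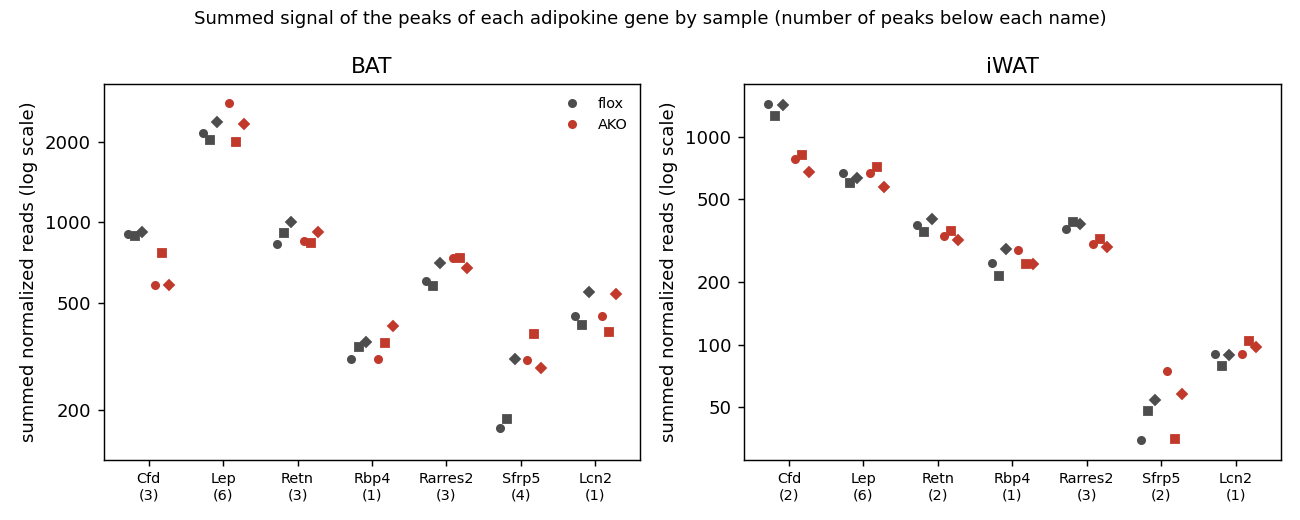
Summed normalized reads (y axis, log scale) of all peaks of each adipokine gene in the 3 flox (grey) and 3 AKO (red) samples of BAT (left) and iWAT (right), with the number of peaks below each name. The genotypes are apart for Cfd in both depots and for Rarres2 in iWAT, and overlap for the other genes.

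Most of the open sites of these genes were found in both depots. Of the 21 BAT peaks, 15 overlapped an iWAT adipokine peak, and 12 of the 15 pairs overlapped by at least 50% of both peaks. The share of all BAT peaks with an overlapping iWAT peak was not counted. The paper reports that most iWAT peaks overlapped BAT peaks, so sharing is not particular to these genes. Reads in peaks differed between the depots, and their part in which peaks were listed was not tested. The 7 BAT peaks over start sites had a partner in 6 cases, the exception being Sfrp5. In the pairs, the fitted log2 fold change was negative in both depots at 4 sites, positive in both at 5 and of opposite sign at 6. Only the Cfd downstream site, 1 of the 15 pairs, had genotypes apart in the same direction in both depots. The share of all overlapping BAT and iWAT peaks that did so was not counted. AKO lay below flox at the Cfd start site in BAT and at the Rarres2 start site in iWAT, with overlapping groups in the other depot.

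The genes that act with the adipokines were counted from lists written from general knowledge, with earlier results of these data known. Some listed names are synonyms, so list sizes count names. Beside the counts below stand 5.59% of all BAT peaks lower and 3.46% higher at an unadjusted p under 0.05 from limma. In iWAT these shares were 7.42% and 7.61%, and edgeR called 2.52% of all iWAT peaks lower and 2.15% higher. Of 19 names for receptors and binding partners, 10 had 52 peaks in BAT, 7 lower and 4 higher at an unadjusted p under 0.05. None was called by limma, DESeq2 or edgeR, and the median log2 fold change was −0.07. The smallest p was that of a peak of Wnt5a, a Wnt ligand bound by SFRP5, with 30.8, 45.8 and 53.0 normalized reads in flox and 21.6, 44.4 and 32.6 in AKO mice and a log2 fold change of −0.99 (−0.41 without PC1). In iWAT 11 of them had 47 peaks, 5 lower and 4 higher, with a median of −0.06. There a peak of Tlr4, a receptor of bacterial lipopolysaccharide, had the smallest p, with 57.7, 34.5 and 60.3 normalized reads in flox and 23.1, 28.5 and 28.9 in AKO aliquots. It was the only peak of the list that edgeR called, with an adjusted p of 0.0569, and its log2 fold change was −0.86.

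The alternative complement pathway, in which factor D acts, was thinly covered. It had 6 peaks of 3 of its 9 listed names in BAT and 6 peaks of 4 in iWAT. None was called by limma, DESeq2 or edgeR. At an unadjusted p under 0.05, 1 was higher in BAT, near Masp1, which encodes the protease that activates pro-factor D, with 58.0, 43.6 and 40.1 normalized reads in flox and 51.5, 44.4 and 66.2 in AKO mice and a log2 fold change of 0.51 (0.19 without PC1). In iWAT 1 was lower, near Cd55, an inhibitor of the complement convertases, with 129.7, 122 and 124 normalized reads in flox and 94.5, 94.8 and 107 in AKO aliquots and a log2 fold change of −0.34. The list medians were 0.08 in BAT and −0.08 in iWAT.

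Among 36 names of other secreted fat factors, 28 had 160 peaks in BAT, 3 lower and 6 higher at an unadjusted p under 0.05. In iWAT 27 had 112 peaks, 8 lower and 12 higher. The medians were 0.03 in both depots. The smallest p in BAT was at Adm, which encodes the vasodilator adrenomedullin, with 63.7, 82.0 and 63.4 normalized reads in flox and 126, 102 and 108 in AKO mice and a log2 fold change of 0.78, and no BAT peak was called. In iWAT it was at Grn, which encodes progranulin, with 24.9, 25.6 and 39.6 normalized reads in flox and 91.1, 63.9 and 65.2 in AKO aliquots and a log2 fold change of 1.27. The AKO aliquots were all above the flox aliquots, and DESeq2 and edgeR called that peak higher, with adjusted p-values of 0.00954 and 0.00153, while limma gave 0.149. In that iWAT list edgeR called 1 peak lower and 2 higher, beside 2.52% and 2.15% of all iWAT peaks. DESeq2 called only the Grn peak. Of 14 paralogs of the members, 8 had 19 BAT peaks, 1 lower and 0 higher, and 7 had 15 iWAT peaks, 3 lower and 0 higher, with 0 called by limma, DESeq2 or edgeR. The smallest p in both depots was at Ptgds, a lipocalin like Lcn2 that makes prostaglandin D. Its BAT peak held 901, 722 and 898 normalized reads in flox and 639, 535 and 426 in AKO mice and its iWAT peak, at another site, 59.9, 61.1 and 54.2 normalized reads in flox and 33.4, 36.5 and 35.3 in AKO aliquots. AKO was below flox in both, with log2 fold changes of −0.66 and −0.72.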

How the data were processed

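Open chromatin was measured by ATAC-seq in 6 BAT and 6 iWAT samples. The authors trimmed paired-end reads to 38 bp where needed, aligned them to mm10 with BWA 0.7.17-r1188, removed duplicates and reads with a mapping quality under 30, called broad peaks per sample with MACS2 2.1.1.20160309, kept peaks that 2 or more replicates of either genotype shared and counted reads with bedtools 2.27.1. The deposited signal values are these counts divided by DESeq2 size factors, and dividing each column by its smallest value above 0 gave whole reads for 100% of values (tolerance 0.0001). The nuclei per reaction differ between the labels and the methods. The authors' columns of fold changes and p-values were not used. The number of unused sample columns was 0.

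Genotypes were compared within each table with limma 3.58.1 (lmFit, eBayes, pseudocount 1, adjusted p under 0.1), with PC1 of all peaks as a covariate in BAT. DESeq2 1.42.0 and edgeR 4.0.16 on the recovered reads were alternatives. Scripts were tested on simulated data, with fits that had no PC1 covariate, so those tests do not cover the main BAT fit. Peak starts were shifted by 1 to count from 1. Peaks were annotated with GENCODE on GRCm38. Median reads per peak ran from 70 to 226 in BAT and from 62 to 98 in iWAT samples, which limits precision at small peaks. The replicate numbers did not consistently pair the samples and were not used as pairs in the main fit. All peaks of each member were counted, and those nearest the start site and of smallest p were given in full, as were all peaks of genes with at most 3. From each list, the peak of smallest p was named. The members and lists were chosen with earlier results of these data known. RefSeq promoter sequences were matched by symbol for 6 of the 7 genes with peaks.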

Additional observations from a re-analysis of the deposited data

How the results depend on the processing

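Whether the Cfd downstream peak was called depended on the test, and its direction did not. Its log2 fold change was negative under every alternative run, from −1.37 to −0.80 in BAT and from −1.29 to −0.86 in iWAT, as was that of the BAT start site peak, from −0.90 to −0.57. Total reads in peaks, TMM factors, cyclic loess, a pseudocount of 0.1 and a threshold of 0.05 left limma with 0 calls in either depot. In BAT, the calls over all peaks and over the adipokine peaks were 174 and 2 by DESeq2, 84 and 1 by edgeR, 53 and 1 by limma with a mean-variance trend, and, by DESeq2 without PC1 (added after seeing the data), 603 and 1. A pseudocount of 10 gave 1 call over all BAT peaks. In iWAT they were 420 and 1 by DESeq2, 1846 and 1 by edgeR, 1440 and 1 with the trend, and 314 and 1 when peaks averaging under 50 normalized reads were left out. With 1 sample left out, limma made 0 calls, and DESeq2 (added after seeing the data) made 65, 37 and 29 without BAT flox replicates 1, 2 and 3, 41, 154 and 296 without AKO replicates 1, 2 and 3, 8, 458 and 42 without iWAT flox replicates 1, 2 and 3, and 54, 38 and 57 without AKO replicates 1, 2 and 3. Over these omissions DESeq2 called 0 or 1 adipokine peaks in BAT and 1 in iWAT each time. The adipokine medians by limma ran from −0.015 to 0.275 in BAT, highest without flox replicate 3. In iWAT they ran from −0.135, without AKO replicate 2, to −0.0016. The BAT median of 0.06 became 0.20 without PC1 and 0.186 by DESeq2 without PC1, and the iWAT median became −0.907 with a PC1 covariate, since PC1 there separated the genotypes. The cause of the other shifts was not tested. The fitted value of 13 of the 21 BAT and 10 of the 17 iWAT adipokine peaks changed sign under some alternative, none of them with a call.

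The titles number the replicates, but same-numbered samples did not consistently deviate together. Their correlations were 0.494, 0.063 and −0.236 in BAT, the first being the highest of any BAT pair. In iWAT they were −0.039, −0.050 and −0.057. With the replicate number as a block, limma made 0 calls in both depots and the adipokine medians were 0.074 in BAT and −0.035 in iWAT, and with the block and no PC1 the BAT median was 0.20. Not every sample correlated best with its own number.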
